A study of Mus musculus with 8 samples.

Results

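The response of wild-type mouse granulosa cells to PMSG was read by setting 2 libraries taken 44 h after PMSG against 2 libraries from untreated cells (0 h). Members were all entries of the deposited expression table with an FPKM (fragments scaled to transcript length and library size) of at least 1 in at least 2 of these 4 libraries. They numbered 12747 of 23235 entries, and only these libraries entered the main model. The series was built around CNOT6 and CNOT6L, deadenylase subunits of the CCR4-NOT complex, and its knockout libraries were used here only for the filter and the pooled spread of named alternatives and for the median behind the relative depths. All 4 libraries were labelled as female, strain C57BL/6 and genotype WT. The untreated group had the treatment "None", the other group had received PMSG, and neither ages nor the PMSG dose were among the labels read. None of these libraries was untreated at 44 h, so PMSG and elapsed time cannot be told apart in any difference below. The labels described flash-frozen ovarian granulosa cells and total RNA, and they did not say whether the replicates were separate animals or pools. P-values therefore speak only of how these libraries scatter, and that scatter may be technical.

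Granulosa cells are the somatic cells that line the ovarian follicle and nurse the oocyte. PMSG, a serum gonadotropin of the pregnant mare, acts on rodent follicles much like follicle-stimulating hormone (FSH): through the FSH receptor it raises cAMP, supports follicle growth to the preovulatory stage, and brings on aromatase and the receptor for luteinizing hormone (LH). Granulosa cells that luteinize turn to progesterone synthesis, which starts from cholesterol taken up from lipoproteins or made in the cell.

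By FPKM sums the libraries were alike, at 710471 and 687232 at 0 h and 709797 and 748049 at 44 h. Their relative depth, read from the steps between low FPKM values, was 0.904, 0.996, 1.03 and 0.971 of the median library of the series. At least 2-fold differences separated 271 genes between the 0 h libraries and 286 between the 44 h libraries, against 1115 to 1784 genes for the 4 pairings of a 0 h with a 44 h library. Inha, a granulosa marker, had the highest mean FPKM of each group, with short RNA, predicted and clone symbols left out. Among further markers of these cells, Amhr2 was 106 to 226 FPKM, Fshr 33.6 to 110 and Foxl2 14.1 to 25.2. Oocyte markers were also present and, over all members in the table, tested or not, as in every sum below, they summed to 3640 and 6155 FPKM at 0 h and 2084 and 2088 at 44 h. In such bulk RNA, fewer cells of a type and less RNA per cell cannot be told apart.

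With limma on log2(FPKM + 1), 1630 genes passed an adjusted p of 0.05 and are named called below, which is 12.8% of those tested. Of these, 805 rose (6.32%) and 825 fell (6.47%), and 4243 had an unadjusted p under 0.05. Groups that did not overlap were found in 64% of the genes tested, 22.9% with the 44 h libraries above and 41.1% with them below. The rises were the larger changes: 180 genes were at least 4-fold higher at 44 h, 160 of them called, and 21 were at least 4-fold lower, 17 of them called. Fold changes and log2 differences here and below are on the log2(FPKM + 1) scale, on which weakly expressed genes show less than their true change. Genes that rose took 4.89% and 4.64% of all FPKM at 0 h and 13.2% and 12.3% at 44 h, whereas genes that fell took 7.54% and 9.16% at 0 h and 3.73% and 3.74% at 44 h. The median difference over all genes was -0.13. After median-of-ratios scaling, which moved that median to -0.0057, 972 genes were called higher and 444 lower.

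The number of calls rested on the spread estimated from so few libraries. A fit with 1 library left out has a group of a single library, which is assumed to vary like the other group, and 1 residual degree of freedom. Without 0 h replicate 2 it was 746, without 44 h replicate 1 it was 383 and without 44 h replicate 2 it was 555, while it was 1698 without 0 h replicate 1. All 1630 genes had the same direction in each of these 4 fits, and 304 (237 higher, 67 lower) were called in each of them. A fit in which all 8 libraries of the series shared the spread gave the same differences and called 27 genes, every one also called here. Below, the calls of a list are followed by their range over the 4 fits that each left out 1 library. They are to be read against the 6.32% of all genes that rose and the 6.47% that fell. Of 39 lists 27 had a larger share of rises than all genes and 19 a larger share of falls. In 5 lists neither share was larger: the CCR4-NOT subunits, the respiratory chain, both sets of ribosomal proteins and the proteasome. Through both 44 h libraries alone 276 genes passed the FPKM minimum, 160 of them called, and through both 0 h libraries alone 257, 44 of them called. The rule let such genes in because they were high in that group, so those named below are given without a p and do not support a list's count.

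**Figure D1:**
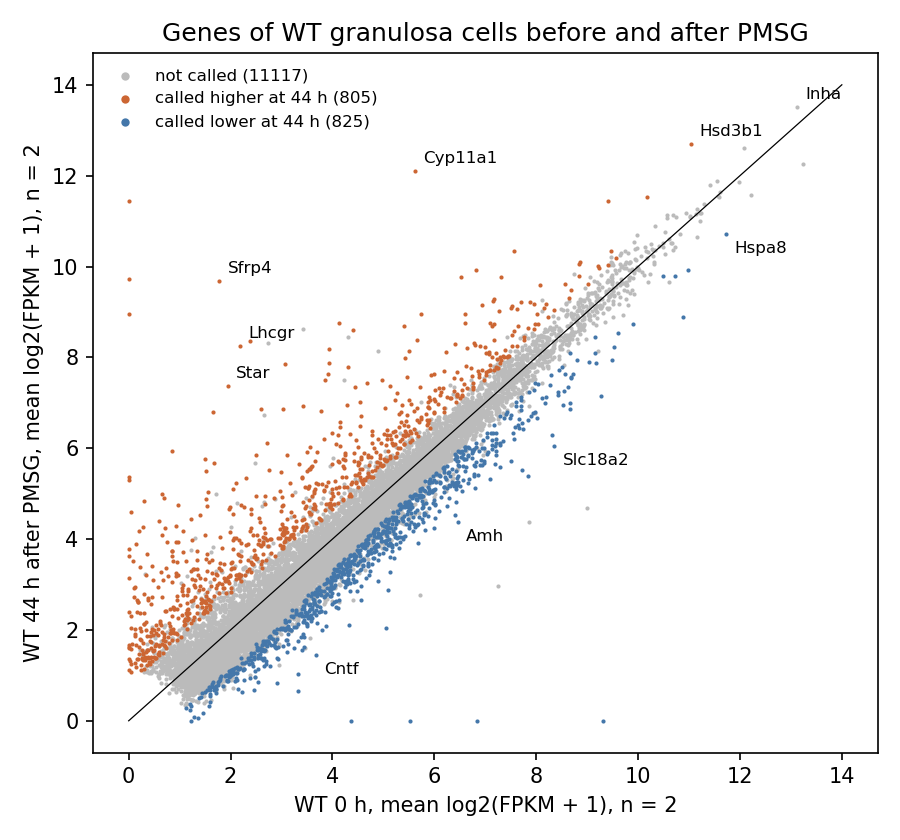
Mean log2(FPKM + 1) of each of the 12747 genes at 0 h (x axis) and 44 h after PMSG (y axis) in WT granulosa cells, n = 2 libraries each; orange points were called higher (805), blue points lower (825) and grey points were not called, and the line marks equal levels. Cyp11a1, Sfrp4, Lhcgr and Star lie far above the line, while the called falls lie closer to it; points on either axis with a high level on the other are mostly short RNA entries.

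Transcripts of receptors for gonadotropins and prolactin rose. Lhcgr, the LH receptor, was 5.33 and 2.28 FPKM at 0 h and 299 and 308 at 44 h (log2 difference 6.06, SE 0.295, adjusted p = 0.000223). Prlr, the prolactin receptor, was 17.2 and 20.6 at 0 h and 204 and 234 at 44 h (3.47, SE 0.156, adjusted p = 0.000168). Fshr, the FSH receptor, was 53.3 and 33.6 at 0 h and 83.9 and 110 at 44 h (1.17, SE 0.246, adjusted p = 0.0326). Both 44 h libraries lay above both 0 h libraries for each of the 3 receptors, and at 44 h Lhcgr was above Fshr in both libraries, the reverse of 0 h. The call of Fshr ended without 0 h replicate 2 or without either 44 h library. Ghr, the growth hormone receptor, moved the other way, from 51.7 and 63.9 to 20.7 and 22.8 (-1.36, SE 0.165, adjusted p = 0.00642). In the list of 6 hormone receptors 3 rose (50%, against 6.32% of all genes) and 1 fell (2 to 3 and 1), and the insulin and IGF1 receptors Insr and Igf1r differed by -0.22 and -0.36 and were not called.

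Among 13 steroid and orphan nuclear receptors 1 rose and 2 fell (0 to 1 and 2), with a median of -0.09. Esr2, the oestrogen receptor of granulosa cells, was 83.5 and 86.6 FPKM at 0 h and 31.2 and 35.2 at 44 h (log2 difference -1.33, SE 0.14, adjusted p = 0.00387). Nr0b1 (DAX1), a repressor of steroidogenic transcription, was 25.4 and 32.2 at 0 h and 5.67 and 9.76 at 44 h (-1.81, SE 0.265, adjusted p = 0.0122). Nr5a1 (SF1), an activator of steroidogenic genes, was 30.5 and 22.6 at 0 h and 42.6 and 45.9 at 44 h (0.73, SE 0.182, adjusted p = 0.0481). The repressor thus fell and the activator rose, although the call of Nr5a1 ended in 3 of the 4 fits with a library left out, all but the one without 0 h replicate 1. Nr5a2 (LRH1) was 19.5 and 20.1 at 0 h and 22.7 and 17.8 at 44 h, with overlapping groups.

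Downstream of the gonadotropin receptors, 4 of 28 genes of cAMP and protein kinase A signalling rose and 2 fell (0 to 3 and 1 to 2; median -0.07). The regulatory subunit Prkar2b was 356 and 223 FPKM at 0 h and 537 and 554 at 44 h (log2 difference 0.95, adjusted p = 0.0427). Pde4b, a cAMP-degrading phosphodiesterase, was 0.706 and 0.219 at 0 h and 3.25 and 3.43 at 44 h (1.59), and passed the minimum through the 44 h libraries alone. Rgs2, which shortens signalling by G proteins, was 417 and 408 at 0 h and 186 and 194 at 44 h (-1.12, adjusted p = 0.0056), and its call held in each fit with a library left out. Prkar1a, the other regulatory subunit called, was 164 and 148 at 0 h and 237 and 234 at 44 h (0.59, adjusted p = 0.0376). Of the remaining calls Pde1a rose by 0.91 and Pde7b fell by 1.15.

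Steroid synthesis held some of the largest rises. Of 18 genes of steroidogenesis 11 rose and none fell (10 to 11 and 0), with a median of 1.63 against -0.13 over all genes. Akr1b7, 1 of the 11, entered through the 44 h libraries alone. Star, which carries cholesterol into mitochondria, was 5.03 and 1.45 FPKM at 0 h and 132 and 205 at 44 h (log2 difference 5.43, SE 0.424, adjusted p = 0.00148). Cyp11a1, which cleaves the cholesterol side chain to make pregnenolone, was 78.3 and 29.7 at 0 h and 4451 and 4339 at 44 h (6.48, SE 0.401, adjusted p = 0.000643). Its level was close in the 44 h libraries. By group mean, with short RNA, predicted and clone symbols left out, it rose from outside the most abundant 10 transcripts to rank 4. Fdx1 and Fdxr pass electrons to that enzyme: Fdx1 was 103 and 79.7 at 0 h and 945 and 810 at 44 h (3.26, adjusted p = 0.000333), and Fdxr rose by 1.43. Hsd3b1, which turns pregnenolone into progesterone, was already 2354 and 1890 at 0 h. It reached 5615 and 7851 at 44 h (1.65, SE 0.245, adjusted p = 0.0123), rank 2 with the same symbols left out. Its call ended without 0 h replicate 2.

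Later steps of the steroid pathway rose as well. Cyp19a1 (aromatase), which makes oestrogen from androgen, was 16.8 and 9.55 FPKM at 0 h and 96.4 and 130 at 44 h (log2 difference 3.04, adjusted p = 0.00259). Akr1c18, which inactivates progesterone, was 1.18 and 3.72 at 0 h and 54.6 and 45.7 at 44 h (3.99, adjusted p = 0.00245). In both genes the groups lay far apart, whereas Hsd17b1, which forms oestradiol, was 389 and 377 at 0 h and 515 and 646 at 44 h and was not called (0.59, adjusted p = 0.0603). Cyp17a1, which makes androgen and marks theca cells, was 21.6 and 1.95 at 0 h and 137 and 97.7 at 44 h (3.83, adjusted p = 0.0346). The 0 h libraries were far apart in this gene, and its call ended without either 44 h library. Insl3, the other defining theca marker, stayed between 3.69 and 5.27 in all 4 libraries, so the defining theca markers did not move together. Mrap, a transport partner of melanocortin receptors with a part in steroidogenic cells, was 15.3 and 17.5 at 0 h and 411 and 447 at 44 h (4.63, SE 0.141, adjusted p = 3.97e-05), and it was also called when all 8 libraries shared the spread.

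**Figure D2:**
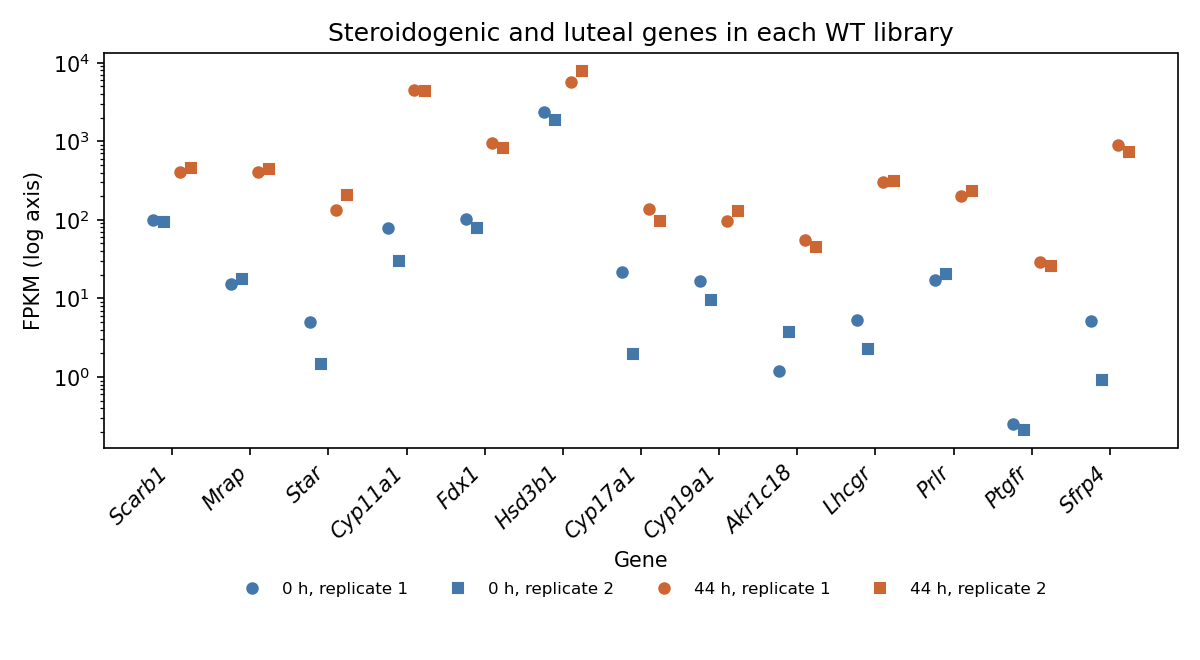
FPKM on a log axis of 13 genes of cholesterol uptake, steroid synthesis and luteal function in each WT library, blue for 0 h and orange for 44 h after PMSG, circles for replicate 1 and squares for replicate 2. In each of the 13 genes both 44 h libraries lie above both 0 h libraries, and the 0 h libraries are farthest apart for Cyp17a1 (21.6 and 1.95) and Sfrp4 (5.10 and 0.926).

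Genes known from luteal cells rose with them: 14 of 17 rose and 1 fell (13 to 16 and 0 to 1), with a median of 3.47. Members of this list overlap with the receptors and steroid enzymes above. Sfrp4, a secreted WNT antagonist, was 5.10 and 0.926 FPKM at 0 h and 904 and 735 at 44 h (log2 difference 7.90, SE 0.485, adjusted p = 0.000626), the largest rise among the genes named by rule. Ptgfr, the receptor for the luteolytic prostaglandin F2α, was 0.251 and 0.209 at 0 h and 29.3 and 25.9 at 44 h (4.54). Of the 14 rises those of Ptgfr and Akr1b7 are in genes that entered through the 44 h libraries alone. Sgk1, a kinase, was 15.7 and 12.5 at 0 h and 204 and 190 at 44 h (3.72, adjusted p = 0.000158). Sfrp4, Ptgfr and Sgk1 were each low at 0 h and at a similar level in both 44 h libraries. Timp1, an inhibitor of matrix metalloproteases, rose unevenly, from 30.8 and 29.7 to 311 and 103 (2.53, adjusted p = 0.0223). The cell cycle inhibitors Cdkn1a and Cdkn1b, also in this list, were not called: Cdkn1b was 18.2 and 15.7 at 0 h and 46.4 and 18.4 at 44 h. Edn1, an endothelin, fell by 1.39.

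Outside these lists the largest rises went to genes of varied roles. Ppp1r14a, an inhibitor of myosin phosphatase, was 4.31 and 4.16 FPKM at 0 h and 305 and 355 at 44 h (log2 difference 5.98, SE 0.149, adjusted p = 1.81e-05). Bhmt, which methylates homocysteine, was 3.54 and 1.20 at 0 h and 107 and 114 at 44 h (5.14, adjusted p = 0.000742). Adh1, an alcohol dehydrogenase, was 11.7 and 4.60 at 0 h and 196 and 275 at 44 h (4.79, adjusted p = 0.0015). In all 3 both 44 h libraries stood far above both 0 h libraries. Plin5, a lipid droplet coat protein, rose by 5.08, Lipg, endothelial lipase, by 4.35 (under 1 FPKM in both 0 h libraries), the extracellular matrix protein Ecm1 by 4.27 and the cystatin Cst8 by 4.26. Saa3, an acute-phase protein, rose by 4.27 and lost its call without 44 h replicate 1. Expi was 0.518 and 0.705 at 0 h and 110 and 7.0 at 44 h, so its rise of 4.21 was uneven. It too passed through the 44 h libraries alone, and its call ended without 0 h replicate 2.

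Promoter letters were read next to these changes, since SF1 is known to bind CAAGGTCA. RefSeq promoter windows of GRCm38.p6, 250 bases before the start of the gene, were matched by symbol for 10128 of the entries tested, which come to 10091 genes under current symbols. Searches covered 6 motifs, all given here or below. On either strand CAAGGTCA was counted 16 times for 604 genes that rose (2.65%) and 5 times for 642 that fell (0.779%). Sgk1 and Minos1 each matched in more than 1 window, so fewer than 16 separate genes that rose may hold it. The letters were counted 118 times for the genes tested (1.17%) and in 438 of 32851 windows in all (1.33%). The cAMP response element, TGACGTCA, did not share this order: it was in 2.15% of the windows of genes that rose, 2.80% of those that fell, 2.94% of those tested and 1.55% of all windows. The median GC content of the windows was 58.8% for genes that rose, 58.8% for genes that fell and 59.4% for genes tested. The median number of CG letter pairs was 11, 13.5 and 15 in the same order. TGACGTCA holds such a pair and CAAGGTCA does not. The motif was in the windows of 0 of 13 steroidogenesis genes with one. Shown here are the matches of 4 genes that rose and of the gene with the largest fall among the 5, with the 8 letters, or their reverse complement TGACCTTG, in capitals and 25 bases to each side.
Bhmt, chr13:93637800-93637857, minus strand: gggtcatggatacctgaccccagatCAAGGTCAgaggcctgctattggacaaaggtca
Cst8, chr2:148798766-148798823, plus strand: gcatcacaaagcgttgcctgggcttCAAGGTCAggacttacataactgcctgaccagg
Sgk1, 1 of its windows, chr10:21985976-21986033, plus strand: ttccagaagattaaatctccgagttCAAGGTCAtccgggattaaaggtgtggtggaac
Dhcr7, chr7:143823090-143823147, plus strand: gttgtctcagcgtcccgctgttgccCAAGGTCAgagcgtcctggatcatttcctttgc
Cntf, chr19:12765682-12765739, minus strand: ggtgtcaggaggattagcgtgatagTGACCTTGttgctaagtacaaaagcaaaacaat

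These matches describe letters in a window and do not show binding. The 5 genes were picked after the values were known, and not by size of change alone. Aldh3b1 (2.90) and Tbxa2r (2.26), not printed, rose by more than Dhcr7 (2.16).

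Several genes of cholesterol uptake and transport rose. Scarb1, which takes up cholesterol from high-density lipoprotein, was 99.8 and 93.6 FPKM at 0 h and 409 and 450 at 44 h (log2 difference 2.14, SE 0.135, adjusted p = 0.000704). The replicates lay close together, and the groups did not overlap. Npc2, which moves cholesterol out of lysosomes, rose by 1.24, Stard5, a cholesterol-binding protein, by 1.15 and Soat1, which esterifies cholesterol for storage, by 0.63. The apolipoproteins went the other way: Apoa1 was 359 and 456 at 0 h and 91.5 and 148 at 44 h (-1.79, adjusted p = 0.00981), and Apoe fell by 0.57. Mylip, a ubiquitin ligase, fell by 0.99. In this list of 21 genes 8 rose and 3 fell (3 to 6 and 1 to 2), with a median of 0.22. Plin1, 1 of the 8, entered through the 44 h libraries alone.

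Cholesterol synthesis rose along nearly its whole length. Of 23 genes tested 18 rose and none fell (9 to 18 and 0), with a median of 1.06, and 21 had both 44 h libraries above both 0 h libraries, which 22.9% of all genes had too. Hmgcs1 was listed at 0 in all 4 libraries, which may be a failed estimate. Fdps, which makes farnesyl diphosphate, was 186 and 174 FPKM at 0 h and 532 and 555 at 44 h (log2 difference 1.59, SE 0.134, adjusted p = 0.00193). Dhcr7, which completes cholesterol, was 23.7 and 21.4 at 0 h and 98.3 and 110 at 44 h (2.16, SE 0.145, adjusted p = 0.000872). The other enzymes called rose by 0.74 (Fdft1) to 1.71 (Tm7sf2). Of the regulators, Scap, which escorts the sterol-sensing transcription factor SREBP2, rose by 1.26. Srebf2, the gene of that factor, was 1.92 and 2.76 at 0 h and 5.45 and 4.32 at 44 h and was not called (0.82, adjusted p = 0.0665), nor was Insig1 (0.08), which retains SCAP in the endoplasmic reticulum.

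Windows of this pathway share a letter pattern. CCAAT, the box bound by NF-Y, was on either strand in 16 of 18 windows of cholesterol synthesis genes (88.9%), against 40.9% of the windows of genes tested and 33.8% of all windows. Among genes that rose and genes that fell the shares were 40.1% and 40.7%. Across the other lists the share ran from 11.1% (surface epithelium markers) to 78.3% (G2/M and mitosis), with 76% for the unfolded protein response. The sterol response element searched, TCACNCCAC, was in 0 of the 18 windows and in 1.05% of all windows. Its shares were 2.81% for genes that rose, 2.18% for genes that fell and 1.26% for genes tested. The last 150 bases before the start are printed for 4 of the enzymes with large rises, in the direction of the gene, with each CCAAT or its reverse complement ATTGG in capitals.
Tm7sf2, chr19:6067851-6068000, minus strand: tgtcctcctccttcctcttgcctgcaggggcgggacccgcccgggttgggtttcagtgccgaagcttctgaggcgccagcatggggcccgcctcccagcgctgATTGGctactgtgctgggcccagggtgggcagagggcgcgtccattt
Idi1, chr13:8885456-8885605, plus strand: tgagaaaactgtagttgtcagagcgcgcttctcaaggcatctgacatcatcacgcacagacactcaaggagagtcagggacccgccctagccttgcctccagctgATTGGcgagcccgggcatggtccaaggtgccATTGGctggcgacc
Hsd17b7, chr1:169969206-169969355, minus strand: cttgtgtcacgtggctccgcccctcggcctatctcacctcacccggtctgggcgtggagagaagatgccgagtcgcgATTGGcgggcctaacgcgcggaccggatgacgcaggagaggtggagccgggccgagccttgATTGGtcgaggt
Lss, chr10:76531455-76531604, plus strand: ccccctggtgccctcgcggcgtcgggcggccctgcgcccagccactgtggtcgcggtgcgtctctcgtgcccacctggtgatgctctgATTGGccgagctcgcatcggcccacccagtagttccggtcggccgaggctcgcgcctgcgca

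In all 4 stretches the capitals read ATTGG, the box on the opposite strand. A match describes the letters of the window alone.

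Fatty acid synthesis and desaturation rose in part: 8 of 20 genes rose and none fell (4 to 10 and 0; median 0.81). Fads2, a fatty acid desaturase, was 11.0 and 9.62 FPKM at 0 h and 64.5 and 53.9 at 44 h (log2 difference 2.41, SE 0.168, adjusted p = 0.000986). Acly, which makes cytosolic acetyl-CoA, was 73.1 and 70.3 at 0 h and 232 and 187 at 44 h (1.53, adjusted p = 0.00337). Fads1 rose by 1.18 and Me1, a source of NADPH, by 1.64. Fasn, the synthase itself, was 4.62 and 3.75 at 0 h and 7.08 and 6.48 at 44 h and was not called (0.59, adjusted p = 0.102), and neither was Srebf1 (0.38).

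Glycolysis also stood higher at 44 h, with smaller changes: 11 of 23 genes rose and 1 fell (1 to 5 and 0 to 1), with a median of 0.64. Slc16a3, a lactate exporter, was 8.94 and 10.1 FPKM at 0 h and 46.1 and 34.3 at 44 h (log2 difference 1.96, adjusted p = 0.00331). Aldoc, an aldolase, was 10.2 and 6.56 at 0 h and 34.3 and 26.7 at 44 h (1.76, adjusted p = 0.00987). Most other rises were between 0.61 (Pkm2) and 0.87 (Hk2). Ldhb fell by 0.95 while Ldha rose by 0.62. In the respiratory chain 73 of 78 nuclear-encoded genes lay above 0 (93.6%, against 38.1% of all genes), but 2 were called (0 to 2; median 0.24), or 2.56% against 6.32% of all genes that rose. Those were Cox7a1, from 17.4 and 24.1 to 48.8 and 69.2 (adjusted p = 0.0155), and Ndufa4l2 (1.52). Of 38 antioxidant genes 9 rose and 1 fell (2 to 4 and 0 to 1; median 0.30), Gsta2 among the 9 through the 44 h libraries alone. Mgst2, a microsomal glutathione transferase, led them, at 21.3 and 23.0 at 0 h and 119 and 139 at 44 h (2.49, adjusted p = 0.0006). Srxn1, which repairs peroxiredoxins, rose by 1.78, and Gstt1 fell by 1.35.

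Signals sent by granulosa cells changed in both directions. Amh, which restrains follicle recruitment and marks small follicles, was 72.8 and 104 FPKM at 0 h and 19.1 and 20.5 at 44 h (log2 difference -2.08, SE 0.197, adjusted p = 0.00291). Inhba, the activin and inhibin βA subunit, was 965 and 481 at 0 h and 2520 and 3097 at 44 h (2.03, SE 0.327, adjusted p = 0.0166), and Inhbb, the βB subunit, was 132 and 101 at 0 h and 195 and 220 at 44 h (0.84, adjusted p = 0.03). Inha, the shared α subunit, was 9428 and 8434 at 0 h and 10434 and 13006 at 44 h and was not called (0.39, adjusted p = 0.321). The call of Inhba ended without either 44 h library, while that of Amh held in each of the 4 fits. Id1, a target of BMP signalling, was 21.3 and 20.7 at 0 h and 63.5 and 81.3 at 44 h (1.73, adjusted p = 0.00302), and Id2 reached 551 and 202 from 53.2 and 46.6. Bmp2, a ligand of that pathway, was 20.8 and 24.2 at 0 h and 5.41 and 5.18 at 44 h (-1.90, adjusted p = 0.00295). Of 30 genes of inhibin, activin, AMH and BMP signalling 5 rose and 2 fell (2 to 5 and 1 to 2; median -0.20).

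In the IGF system 4 of 12 genes rose and 3 fell (1 to 3 and 0 to 2). Igf1, a growth factor that works together with FSH, was 71.6 and 89.3 FPKM at 0 h and 32.8 and 41.8 at 44 h (log2 difference -1.09, adjusted p = 0.0185), a call that ended without 44 h replicate 1. Pappa, a protease that frees IGF from its binding proteins, was 0.13 and 0.0739 at 0 h and 2.28 and 2.09 at 44 h (1.53). The binding proteins split: Igfbp6 rose by 0.91, Igfbp7 by 1.56 and Igfbp3 by 1.17, and Igfbp4 fell by 0.78. Pappa and Igfbp3, 2 of the 4 rises, passed the minimum through the 44 h libraries alone. Notch and WNT genes gave 2 rises and 4 falls among 28 (1 to 3 and 1 to 5; median -0.11). Tcf7l2, a WNT effector, was 49.2 and 60.9 at 0 h and 23.0 and 20.9 at 44 h (-1.28, adjusted p = 0.00796), and Jag1 and Heyl, a Notch ligand and a Notch target, fell by 1.45 and 0.94. Sfrp2 was uneven at 44 h, at 23.1 and 3.56, after 0.294 and 0.0445 at 0 h, and entered in the same way. Of 9 genes of KIT ligand, natriuretic peptide and gap junctions 1 was called (0 to 1 higher and 0 to 2 lower). It was Nppc, whose peptide helps to hold the oocyte in meiotic arrest, at 60.4 and 52.8 at 0 h and 99.2 and 116 at 44 h (0.91, adjusted p = 0.0178). Gja1, the main gap junction protein of granulosa cells, was 3285 and 2868 at 0 h and 3034 and 2874 at 44 h, with overlapping groups.

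Of 16 transcription factors that mark granulosa identity 5 fell and 2 rose (2 to 5 and 0 to 1), with a median of -0.41 against -0.13 over all genes. Foxo1, a factor that FSH signalling inactivates, was 119 and 106 FPKM at 0 h and 60.7 and 67.1 at 44 h (log2 difference -0.80, adjusted p = 0.0211). Wt1, a factor of immature granulosa cells, was 22.8 and 27.0 at 0 h and 12.9 and 10.5 at 44 h (-1.03, adjusted p = 0.0223). Sox4 was 47.8 and 43.5 at 0 h and 19.6 and 20.03 at 44 h (-1.16, adjusted p = 0.0071). Its call and that of Esr2, given above, held without any single library, while those of Foxo1 and Wt1 did not. Gata4, which activates steroidogenic promoters, rose from 26.6 and 29.9 to 55.5 and 46.5 (0.83, adjusted p = 0.0267). Foxl2, a keeper of ovarian identity, was 15.8 and 14.1 at 0 h and 25.2 and 18.6 at 44 h and was not called (0.51, adjusted p = 0.13).

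Of 20 granulosa markers 4 rose and 7 fell (1 to 4 and 4 to 6). Among the falls were Slc18a2, a vesicular monoamine transporter, from 262 and 405 FPKM to 62.7 and 67.5 (log2 difference -2.31, SE 0.216, adjusted p = 0.00286), and Kctd14, from 176 and 248 to 50.3 and 40.1 (-2.19, SE 0.205, adjusted p = 0.00286). In both, the lower 0 h library stayed well above either 44 h library. The largest falls by rule also held Kazald1 (-2.46), Cntf, a neurotrophic cytokine (-2.24), Gulo, of vitamin C synthesis (-2.21), and Nos2, the inducible nitric oxide synthase (-2.21). Nupr1, a stress-response gene, was 640 and 588 at 0 h and 160 and 125 at 44 h (-2.11, SE 0.165, adjusted p = 0.00148). Wfdc10 was 339 and 293 at 0 h and 76.2 and 77.6 at 44 h (-2.02, SE 0.138, adjusted p = 0.000917). Cntf and Nupr1 were also called with the spread of all 8 libraries. Hsph1 (-1.88), Stra6 (-1.85), Shbg (-1.81) and Itih2 (-1.80) completed these falls. Kazald1 and Nos2 lost their calls without 1 of the 44 h libraries (replicate 1 and replicate 2), and Stra6 and Shbg without either of them.

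**Figure D3:**
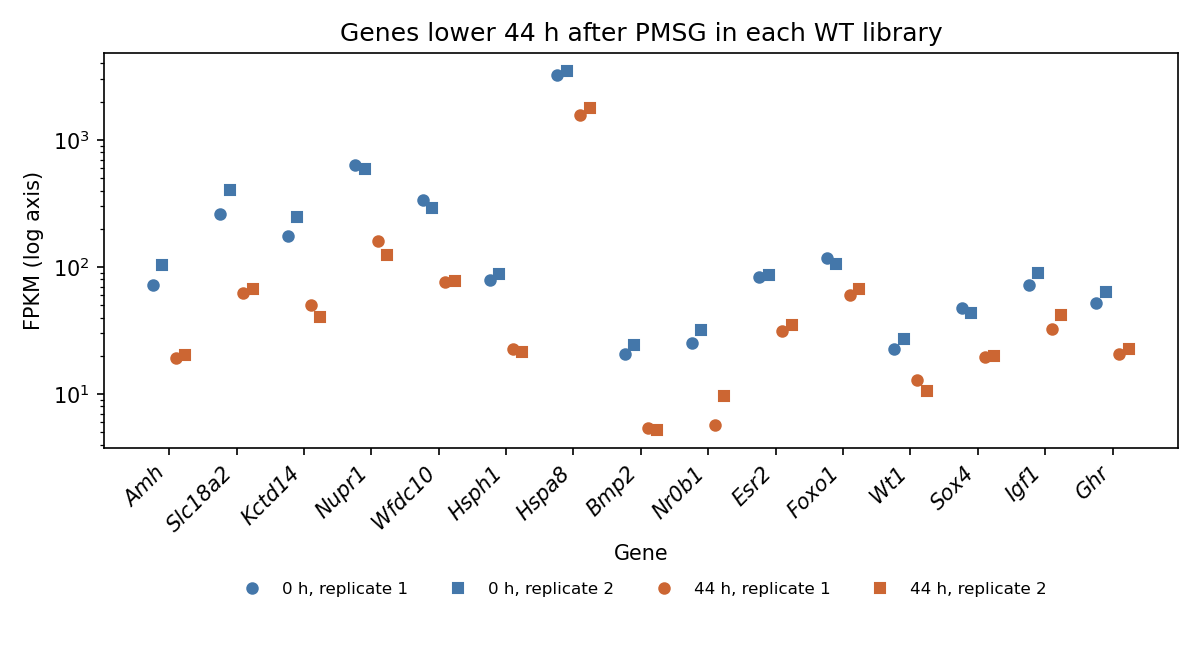
FPKM on a log axis of 15 genes that fell, in each WT library, blue for 0 h and orange for 44 h after PMSG, circles for replicate 1 and squares for replicate 2. In each gene both 44 h libraries lie below both 0 h libraries, from Hspa8 (3250 and 3487 against 1568 and 1782) to Bmp2 (20.8 and 24.2 against 5.41 and 5.18).

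Genes of ovulation and cumulus expansion, which follow the LH surge, were compared although no ovulatory hormone was labelled: 8 of 19 rose and 1 fell (4 to 9 and 0 to 2), with a median of 1.06. Cited4, a transcriptional coregulator, was 14.7 and 12.1 FPKM at 0 h and 208 and 157 at 44 h (log2 difference 3.66, adjusted p = 0.00029). Runx2 was 0.109 and 0.235 at 0 h and 4.66 and 3.67 at 44 h (2.14). Runx2 and Ptgfr, 2 of the 8 rises, passed through the 44 h libraries alone. Several members were uneven between the 44 h libraries: Adamts1, a versican-cleaving protease, was 73.3 and 21.2 after 4.01 and 3.81 at 0 h (3.05, adjusted p = 0.0181), and Edn2 was 10.2 and 2.84 after 1.61 and 1.77 (not called, adjusted p = 0.113). Ptx3 was 3.53 and 1.19 at 44 h (not called) and Tnfaip6 5.12 and 3.94 (called, 1.64), both matrix proteins of the cumulus. Of the immediate-early genes 4 rose and 4 fell among 18 (1 to 2 and 1 to 3; median 0.16), Egr2 among the falls through the 0 h libraries alone. Dusp1, a MAP kinase phosphatase, was 15.2 and 18.4 at 0 h and 104 and 87.0 at 44 h (2.44, adjusted p = 0.000917), while Fos was 34.0 and 42.0 at 0 h and 15.8 and 15.2 at 44 h (-1.24, adjusted p = 0.00938) and Egr1 fell by 1.40.

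Matrix and vessel genes changed in part. Of 23 genes of the follicular basal lamina and matrix 9 rose and 1 fell (2 to 7 and 0 to 2; median 0.60). Sparc, a matricellular protein, was 121 and 122 FPKM at 0 h and 541 and 589 at 44 h (log2 difference 2.21, SE 0.133, adjusted p = 0.000609). Col4a1 and Col4a2, collagen IV chains of basement membranes, rose by 1.97 and 1.90, whereas Lama1 fell by 0.89 and Col4a3, Col4a5 and Col4a6 were not called. Among 28 proteases and inhibitors 7 rose and 3 fell (5 to 8 and 0 to 3; median 0.31). Timp3, a metalloprotease inhibitor, was 10.3 and 11.1 at 0 h and 46.4 and 45.3 at 44 h (2.004, adjusted p = 0.00128), Ctsb, a lysosomal protease, rose by 1.46 and Mmp11 fell by 1.13. Angiogenic factors gave 5 rises and 3 falls among 15 (2 to 4 and 1 to 3; median 0.46). Apln, a vascular peptide, was 0.15 and 0.272 at 0 h and 25.8 and 12.8 at 44 h (3.99). It passed through the 44 h libraries alone, as did Angpt1 and Figf, so 3 of the 5 rises are such genes. Thbs1, an inhibitor of vessel growth, was 153 and 143 at 0 h and 65.6 and 49.6 at 44 h (-1.36, adjusted p = 0.00707). Vegfa was 1.18 and 0.845 at 0 h and 1.97 and 1.55 at 44 h and was not called.

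DNA replication genes stood lower at 44 h. All 49 tested genes of G1/S and DNA replication had differences below 0, as did 61.9% of all genes, with a median of -0.55, 48 with both 44 h libraries below both 0 h libraries, which 41.1% of all genes had too. Of them 13 fell and none rose (0 to 13). Mcm6, of the replicative helicase, was 165 and 192 FPKM at 0 h and 91.4 and 111 at 44 h (log2 difference -0.82, adjusted p = 0.027). Cdc6, which loads that helicase, was 16.7 and 19.8 at 0 h and 9.44 and 8.89 at 44 h (-0.92, adjusted p = 0.0277), and Slbp, which serves histone mRNA in S phase, was 564 and 577 at 0 h and 334 and 358 at 44 h (-0.72, adjusted p = 0.0262). These changes were below 2-fold and none of the 3 calls held in all 4 fits with a library left out. Of 54 genes of G2/M and mitosis 50 lay below 0 (median -0.47), 7 fell and none rose. In the fits with a library left out 0 to 11 of them fell and 0 to 1 rose, and after median-of-ratios scaling 3 of the replication genes and 0 of the mitotic genes did, with medians of -0.41 and -0.34. Top2a, a topoisomerase of dividing cells, was 72.2 and 77.6 at 0 h and 51.5 and 43.7 at 44 h (-0.65, adjusted p = 0.0387). The oocyte markers, whose sums are given above, were lower at 44 h in the same libraries, and their part in the cell cycle genes was not tested.

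For these lists 2 motifs of cell cycle promoters were searched. The CHR, TTTGAA, was in 18 of 46 windows of G2/M genes (39.1%) and in 16.0% of all windows, and CCAAT was in 36 of the 46 (78.3%). TTTNNCGC, a motif of E2F factors, was in 9 of 39 windows of replication genes (23.1%) and in 4.28% of all windows. The windows of genes tested held the CHR in 13.0% and the E2F motif in 8.12%. Across the other lists the CHR share ran from 0% to 40% (theca and stroma markers, 4 of 10 windows). That of the E2F motif ran from 0% to 33.3% (oviduct and ciliated cell markers, 2 of 6), with 23.5% for D cyclins and CDK inhibitors. The 150 bases before the start of Top2a carry both patterns of mitotic promoters, shown in capitals as CCAAT or ATTGG and as TTCAAA, the CHR on the opposite strand.
Top2a, chr11:99024190-99024339, minus strand: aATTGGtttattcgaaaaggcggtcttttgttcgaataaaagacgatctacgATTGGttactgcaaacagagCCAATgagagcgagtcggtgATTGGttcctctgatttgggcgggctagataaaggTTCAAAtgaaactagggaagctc

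Among D cyclins and CDK inhibitors 2 of 22 rose, Cdkn2b through the 44 h libraries alone, and 1 fell (0 to 3 and 1; median -0.17). Cables1, a cyclin-dependent kinase adaptor, was 47.5 and 53.4 FPKM at 0 h and 13.8 and 14.3 at 44 h (log2 difference -1.78, adjusted p = 0.00201), and this call held also with the spread of all 8 libraries. Ccnd2, the cyclin D that FSH induces, was 158 and 194 at 0 h and 127 and 171 at 44 h, with overlapping groups. Of 28 apoptosis genes 2 fell and none rose (0 to 1 higher and 1 to 3 lower; median -0.09): Txnip, an inhibitor of thioredoxin, from 92.3 and 95.6 to 39.1 and 38.3 (-1.26, adjusted p = 0.00374), and Casp2 (-0.83).

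**Figure D4:**
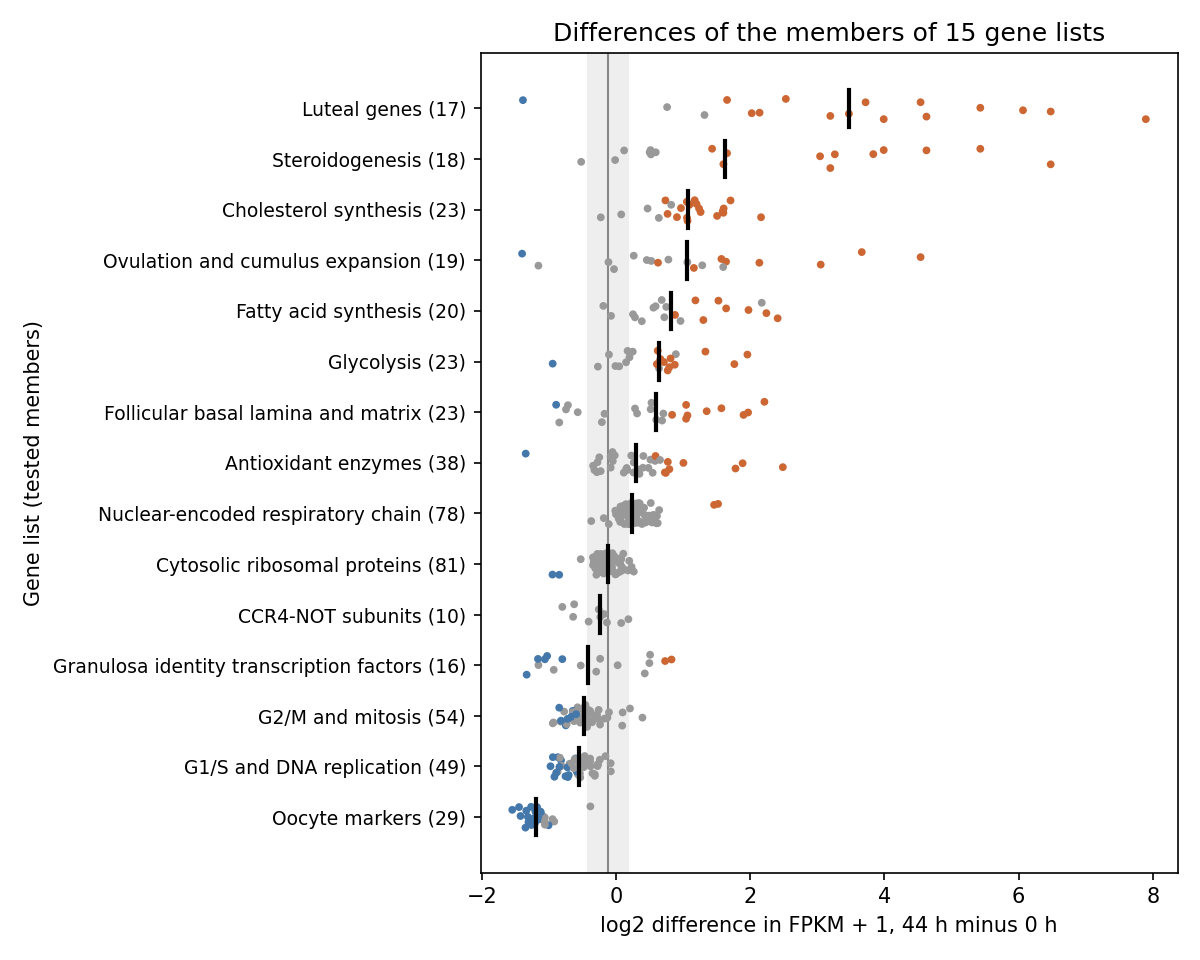
Difference in log2(FPKM + 1), 44 h minus 0 h, of each tested member of 15 gene lists (1 point a gene, orange called higher, blue called lower, grey not called; black bars are list medians; vertical scatter carries no value). The grey line and band are the median (-0.13) and quartiles (-0.42 and 0.18) of all 12747 genes. The medians of the luteal, steroidogenic and cholesterol lists lie to the right of the band and that of the oocyte markers (-1.19) to its left.

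The deadenylase complex that the series is named for gave no call. None of 10 CCR4-NOT subunits was called by limma. An unadjusted p under 0.05 was found for 3 of the 10, and for 4243 of all 12747 genes. In other settings 1 was called at a time: Cnot3, lower without 0 h replicate 1, and Cnot4, lower when short RNA, predicted and clone entries were left out (adjusted p = 0.0468). Cnot6 was 29.1 and 18.4 FPKM at 0 h and 26.0 and 26.9 at 44 h (log2 difference 0.18, SE 0.228, adjusted p = 0.61). Cnot6l was 6.11 and 7.07 at 0 h and 4.202 and 2.63 at 44 h (-0.80, SE 0.247, adjusted p = 0.0786). Both 44 h libraries lay below both 0 h libraries for Cnot6l, as they did for 41.1% of all genes, and not for Cnot6. Of 38 deadenylation adaptors and other decay factors 1 rose and 3 fell (0 to 2 and 0 to 4; median -0.28). Btg2, an antiproliferative CCR4-NOT adaptor, was 11.9 and 11.5 at 0 h and 28.1 and 21.2 at 44 h (1.01, adjusted p = 0.026), and Zfp36l2, which brings the complex to AU-rich mRNA, fell by 0.96. Btg4, an adaptor of oocytes, was 190 and 316 at 0 h and 113 and 105 at 44 h (-1.16, adjusted p = 0.0311), and Patl2, also an oocyte gene, fell by 1.26. The last 2 moved with the oocyte markers below.

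Housekeeping lists gave few calls. Of 81 cytosolic ribosomal proteins 2 fell and none rose (0 and 0 to 1; median -0.12), and after median-of-ratios scaling their median was 0.023. Mitochondrial ribosomal proteins gave 3 rises among 75 (0 to 2; median -0.0061). Of 38 proteasome subunits 1 rose, the immunoproteasome subunit Psmb8 (0 to 1; median 0.12). Of 28 genes of the unfolded protein response 2 fell, Dnajc3 and Dnajb9 (0 to 1 higher and 0 to 2 lower; median -0.27). Of the 10 most abundant transcripts at 0 h, with short RNA, predicted and clone symbols left out, 9 were not called. The called one was Hspa8, a constitutive chaperone, which was 3250 and 3487 FPKM at 0 h and 1568 and 1782 at 44 h (log2 difference -1.01, adjusted p = 0.0219). Its call ended without either 0 h library or without 44 h replicate 1.

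Markers of other cells also moved with time. Of 29 oocyte markers tested 22 fell and none rose (0 to 27), with a median of -1.19. Gdf9, an oocyte growth factor, was 452 and 743 FPKM at 0 h and 228 and 237 at 44 h (log2 difference -1.31, adjusted p = 0.0226). Zp3, of the egg coat, was 290 and 530 at 0 h and 158 and 168 at 44 h (-1.26, adjusted p = 0.0342). Each 0 h library was above both 44 h libraries in 28 of the 29, as it was in 41.1% of all genes, and the sum was highest in 0 h replicate 2. Their calls numbered 27 without 0 h replicate 1, 9 without 0 h replicate 2 and 0 without either 44 h library. The share of oocyte RNA in the falls of cell cycle genes, of Btg4 and of Patl2 was not tested.

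Theca and stroma markers gave 5 rises among 18 and no fall (1 to 7; median 0.67), with summed levels of 184 and 196 FPKM at 0 h and 480 and 474 at 44 h. Besides Cyp17a1 the called genes were Aldh1a1, Dcn, Lum and Col3a1. Dcn, a proteoglycan of connective tissue, was 22.7 and 29.6 at 0 h and 56.4 and 54.4 at 44 h (log2 difference 1.06, adjusted p = 0.0162). Of the smooth muscle markers none was called. Acta2 was 43.5 and 38.04 at 0 h and 50.4 and 62.4 at 44 h (0.45, adjusted p = 0.112), and Tagln (0.52) and Des (0.85) also had both 44 h libraries above both 0 h libraries, while Myh11 and Cnn1 overlapped. Endothelial markers gave 6 rises among 10, Eng through the 44 h libraries alone (2 to 6; median 1.02), and summed to 36.9 and 36.04 at 0 h and 108 and 114 at 44 h. Cd34 was 9.61 and 4.92 at 0 h and 47.1 and 40.0 at 44 h (2.49, adjusted p = 0.00531). The defining marker Pecam1 was 4.401 and 6.80 at 0 h and 4.16 and 4.92 at 44 h, with overlapping groups. Cdh5, the other defining marker, was 0.256 and 0.359 at 0 h and 1.68 and 0.955 at 44 h, too low to be tested. The part of these cells in the rises of Cyp17a1, the collagens, Sparc and Apln was not tested.

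The remaining markers were low or uneven. Leukocyte markers summed to 465 and 322 FPKM at 0 h and 535 and 396 at 44 h, with 2 of 21 called higher (0 to 5; median 0.23), and Ptprc was at most 1.06. The highest value was in 44 h replicate 1 for 19 of the 25 listed in the table. Surface epithelium markers summed to 190 and 159 at 0 h and 246 and 247 at 44 h, with 2 of 12 higher (0 to 2; median 0.55), Krt19 and Krt7. Erythroid markers summed to 790 and 254 at 0 h and 444 and 406 at 44 h, with 1 of 6 lower (0 to 3 higher and 0 to 2 lower), and were thus highest in 0 h replicate 1. Among 8 oviduct and ciliated cell markers 1 rose, Rsph1 (0 to 2 higher and 0 to 1 lower). Ovgp1, the oviduct glycoprotein, was 1.59 and 11.1 at 0 h and 366 and 6.05 at 44 h, so 44 h replicate 1 stood apart. That library held the highest value of 7 of the 13 markers in the table, among them Capsl (9.11, against at most 2.49 elsewhere), Dynlrb2 (9.99, at most 3.60), Pax8 (3.78, at most 0.106) and Wfdc2 (3.70, at most 0.35). Foxj1 of ciliated cells was 0.622 there and at most 0.168 elsewhere. Expi, Spp1 and Sfrp2 were uneven in the same sense, with Spp1 at 174 and 72.4 at 0 h and 2245 and 423 at 44 h. Whether other tissue in 44 h replicate 1 bears on these was not tested.

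**Figure D5:**
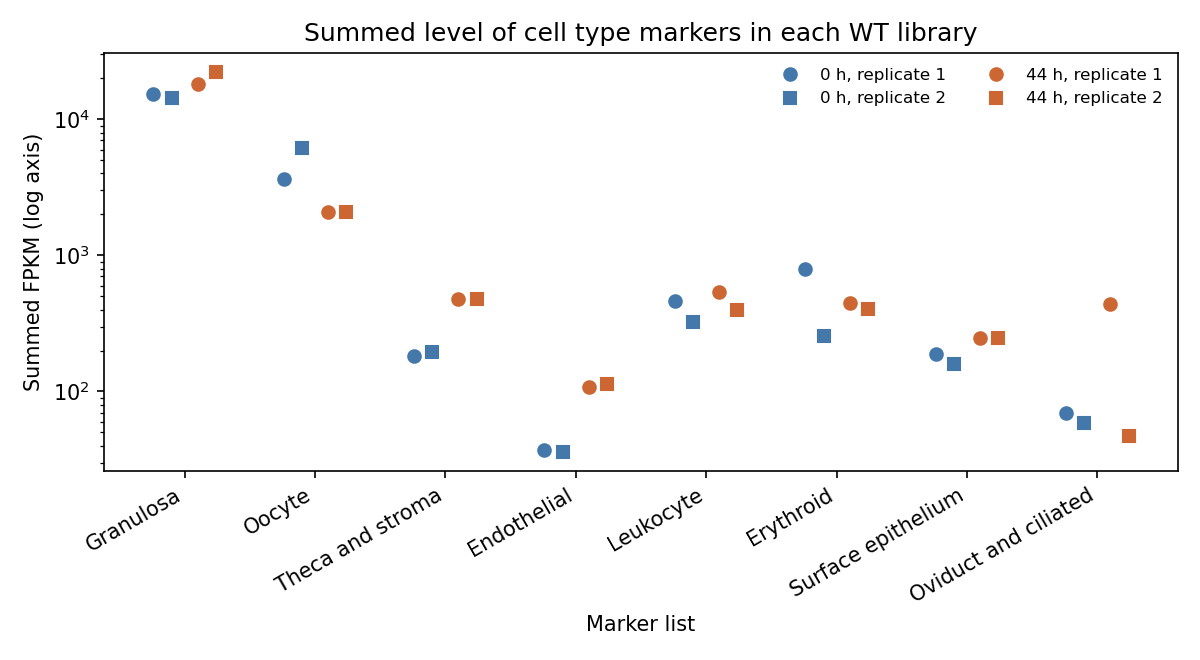
Summed FPKM on a log axis of all members in the table, tested or not, of 8 cell type marker lists in each WT library, blue for 0 h and orange for 44 h after PMSG, circles for replicate 1 and squares for replicate 2. Oocyte markers are lower in both 44 h libraries (2084 and 2088 against 3640 and 6155), theca, stroma and endothelial markers are higher, and oviduct markers are high in 44 h replicate 1 alone (438 against 47.1 to 69.6 in the others).

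The edge of the member rule passed through weakly expressed genes. Just inside it, Cfb was 0.729 and 0.409 FPKM at 0 h and 1.19 and 1.00 at 44 h, and Tymp 1.00 and 1.33 at 0 h and 0.721 and 0.654 at 44 h. Just outside it, Scube2 was 1.47 and 0.9998 at 0 h and 0.440 and 0.293 at 44 h. A further 2871 entries were listed at 0 in all 4 libraries. Among members, 7 genes with a symbol other than a short RNA, predicted or clone name were listed at 0 in both 0 h libraries and reached at least 1 in both 44 h libraries, Defb36 among them at 10.01 and 13.1.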

How the data were processed

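RNA was measured in libraries made, per the labels' protocols, with TruSeq and TruePrep kits and read paired-end on an Illumina HiSeq X instrument. The table that the authors deposited holds FPKM values, 1 column a library, per the file headers. The submitters' processing notes name TopHat2 2.1.1, Cufflinks 2.2.1 and mm9 without role or order; annotation and filters were not given in these sources. Read numbers are not in the table, so no count model was used and only relative depth is known. A gene listed at 0 may reflect a failed estimate.

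The 4 WT libraries were fitted on log2(FPKM + 1) with limma 3.58.1 (R 4.3.3; trended empirical Bayes, two-sided tests, 2 residual degrees of freedom). A gene entered with an FPKM of 1 or more in any 2 of them. Benjamini-Hochberg adjustment ran over all 12747 genes, and genes were called under 0.05. SE is the standard error of the fit. The members and the 39 gene lists were chosen with earlier results of these data known, so no list count is independent support.

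Named genes were the 15 called genes with the largest change in each direction. These had a mean FPKM of at least 10 in the higher group, no overlap between groups and no short RNA, predicted or clone symbol. Beside them stood the 10 most abundant per group by mean FPKM, with the same kinds of symbol left out. Cnot6 and Cnot6l, up to 4 members per list with the smallest p, and further list members by role, passing or not, completed them. Genes named otherwise were picked after their values were seen. Some genes that the rule names are not reported here. Promoter windows came from RefSeq (GRCm38.p6), another build than mm9, so no coordinates of measured genes are given. Alternatives covered the pseudocount, filter, scaling, replicate block, spread and each library in turn. In a simulation of the same comparison over 12747 genes, changes of 1 (log2) were found for 15 of 67 genes. Changes of 2 were found for 60 of 67 and changes of 3 for 64 of 66, beside 6 false calls. Far fewer genes were changed there than were called in the data. The false calls therefore give no error rate for those calls, and the numbers found do not say what share of real changes was called. Python 3.11.15 and pandas 2.3.3 were used.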

Additional observations from a re-analysis of the deposited data

How the results depend on the processing

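With 2 libraries a group, depth known only in relative terms and replicates of unstated origin, the number of calls was less firm than the differences. Against 1630 calls (805 higher, 825 lower), limma called 218 without a filter on low values (176 higher, 42 lower), 27 with the spread of all 8 libraries (17 higher, 10 lower), and 945 with the filter read over all 8 libraries (399 lower), an alternative chosen after seeing the data. Lower calls numbered 444 after median-of-ratios scaling. That scaling also turned the medians of 6 lists from below to above 0: nuclear receptors (0.030), cAMP and protein kinase A (0.058), Notch and WNT (0.014), apoptosis (0.025), and cytosolic and mitochondrial ribosomal proteins (0.023 and 0.13). Leaving out each library gave 383 to 1698 calls, with 287 to 699 higher and 96 to 999 lower. The other settings stayed within 1.5 times the count: 1619 and 1447 with pseudocounts of 0.1 and 5, 1391 with an FPKM of at least 5, 1431 after quantile normalization (857 higher, 574 lower), 1959 with robust empirical Bayes, 1317 without a trend and 1990 without short RNA, predicted and clone entries. The replicate block gave 1652 calls, and same-numbered libraries did not deviate together (r = -0.0113 across genes, 2 pairs), so the numbers are not taken as a pairing.

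Of the 30 genes of largest change none turned direction in any setting, and 29 or 30 kept the call in 12 of the 16 settings, while 6 kept it with the spread of all 8 libraries. Those 30 were chosen for their calls and large differences in these same libraries, so their steadiness was favoured by that choice and is no support. Among other named genes, none of them called with all 4 libraries, these changed sign. After median-of-ratios scaling Rpl35 was 0.017, Cyb5 0.13 and Gja1 0.086, and after quantile normalization H2afz was -0.22 and Ppia -0.087. With a library left out H2afz ranged from -0.0721 to 0.118, Cyb5 from -0.235 to 0.203, Gja1 from -0.153 to 0.042, Cnot6 from -0.134 to 0.50, Hba-a2 from -0.944 to 1.98 and Hbb-b2 from -1.35 to 2.22. The cause was not tested.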

Other observations

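Chaperones were looked up because Hsph1 and Hspa8 stood among the falls, so their counts are a description and no test. Without those genes, 2 of 12 tested symbols beginning Hspa or Hsp90 fell and none rose, where 6.47% of all genes fell, and their median log2 difference was -0.41 against -0.13 over all genes. Not all of them act in the cytosol. Of 7 symbols beginning Hspb, Hspd or Hspe none lay below 0 (median 0.26), and 1 rose, the small heat shock protein Hspb8, from 0.877 and 1.69 FPKM to 8.41 and 4.54 (1.68, adjusted p = 0.0265). Hsph1, a nucleotide exchange factor of HSP70, was 79.7 and 88.8 FPKM at 0 h and 22.7 and 21.5 at 44 h (-1.88, adjusted p = 0.00128). Hsp90aa1, the inducible HSP90, was 475 and 688 at 0 h and 277 and 267 at 44 h (-1.07, adjusted p = 0.0243). Dnajb1, an HSP70 partner, was 161 and 163 at 0 h and 64.5 and 76.8 at 44 h (-1.19). Hspd1 and Hspe1, the mitochondrial chaperonin, were not called (0.10 and 0.36), and the 8 subunits of the cytosolic chaperonin, Tcp1 and Cct genes, lay between -0.47 and -0.13 with no call.

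Other genes outside the lists, also picked after their values were seen, rose. Oxtr, the oxytocin receptor, was 1.21 and 0.751 FPKM at 0 h and 29.3 and 22.9 at 44 h (log2 difference 3.77, adjusted p = 0.00062). Tspo, a cholesterol-binding protein of the outer mitochondrial membrane, was 83.7 and 65.6 at 0 h and 247 and 308 at 44 h (1.88). Idh1, a cytosolic source of NADPH, was 229 and 154 at 0 h and 1341 and 1253 at 44 h (2.78, adjusted p = 0.00126), and Alas1, which starts haem synthesis, rose by 2.24.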
